A study of Homo sapiens with 17 samples.

Results

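The 29 genes described here encode the enzymes of cholesterol and fatty acid synthesis, the regulators that switch them on and off, and carriers of sterol between membranes. They were chosen by symbol, as listed members of these pathways, from the 23368 genes of the count table, and all 29 had enough counts to be tested in every comparison. By role they fall into 7 genes of the mevalonate pathway, 10 genes that lead from squalene to cholesterol, 5 SREBP regulators, 3 genes of sterol transport and 4 genes of fatty acid synthesis. The samples were poly(A) RNA of 293T cells (HEK293T, a human embryonic kidney line) in acRIP-seq, which pulls down RNA carrying N4-acetylcytidine (ac4C) with an antibody and sequences it by a Smart-seq2 protocol. One set of cells was WT and the other was treated with siRNA against TDP43, the RNA-binding protein encoded by TARDBP (siTDP43, genotype siTARDBP in the labels). From each genotype came input RNA, taken without antibody, RNA bound by the anti-ac4C antibody (IP) and RNA bound by a control immunoglobulin (IgG). The 17 libraries form 6 groups of 3, apart from WT IgG with 2 libraries. No control siRNA is named for the WT cells, so an effect of transfection and an effect of TDP43 loss cannot be told apart, and a culture or preparation batch that differs between the genotypes cannot either.

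Cells make cholesterol from acetyl-CoA by way of mevalonate, isoprenoid units, squalene and lanosterol, and make fatty acids from the same acetyl-CoA by way of malonyl-CoA. Both routes are controlled by the SREBP transcription factors, which are carried from the endoplasmic reticulum by SCAP when sterol is low and are held back there by the INSIG proteins when sterol is high. Processed SREBP binds sterol regulatory elements in the promoters of the synthesis genes, often beside a CCAAT box that binds the factor NF-Y, and SREBF2 is best known for driving the sterol branch and SREBF1 the fatty acid branch.

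Promoter sequence is shown for 8 genes, the 7 with the largest change in the inputs among those with a promoter in the RefSeq table (LBR, SREBF1, HMGCS1, LSS, SCD, CYP51A1 and NSDHL) and SREBF2, the gene of the other SREBP. Each window runs from 250 bases before to 50 bases after a RefSeq start site (GRCh38.p14), is written 5′ to 3′ on the strand of the gene, and has in capitals every sterol regulatory element (TCACNCCAC) and every CCAAT box (CCAAT) found on either strand, so that a box on the opposite strand reads ATTGG. The windows are chr1:225428772-225429071 on the minus strand for LBR, chr7:92134428-92134727 on the minus strand for CYP51A1, chr5:43313363-43313662 on the minus strand for HMGCS1, chr21:46228725-46229024 on the minus strand for LSS, chrX:152830813-152831112 on the plus strand for NSDHL, chr10:100346983-100347282 on the plus strand for SCD, chr22:41832855-41833154 on the plus strand for SREBF2 and chr17:17836937-17837236 on the minus strand for SREBF1.
LBR: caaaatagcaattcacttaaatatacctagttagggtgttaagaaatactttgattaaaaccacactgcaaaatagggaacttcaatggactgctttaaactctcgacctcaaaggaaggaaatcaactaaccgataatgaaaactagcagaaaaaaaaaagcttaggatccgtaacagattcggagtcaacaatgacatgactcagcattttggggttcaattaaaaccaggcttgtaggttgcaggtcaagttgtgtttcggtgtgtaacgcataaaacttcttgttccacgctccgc
HMGCS1: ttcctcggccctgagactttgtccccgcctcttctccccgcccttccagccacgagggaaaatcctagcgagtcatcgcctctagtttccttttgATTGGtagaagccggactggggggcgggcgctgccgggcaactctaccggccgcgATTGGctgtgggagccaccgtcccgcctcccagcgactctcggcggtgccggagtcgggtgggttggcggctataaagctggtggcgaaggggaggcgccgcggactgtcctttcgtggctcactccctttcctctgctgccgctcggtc
LSS: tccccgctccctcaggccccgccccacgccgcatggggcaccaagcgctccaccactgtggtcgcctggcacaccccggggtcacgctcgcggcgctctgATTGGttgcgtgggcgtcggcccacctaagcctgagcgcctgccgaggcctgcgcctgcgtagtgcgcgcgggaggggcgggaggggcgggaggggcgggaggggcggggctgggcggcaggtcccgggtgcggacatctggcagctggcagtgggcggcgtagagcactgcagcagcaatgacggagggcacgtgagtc
CYP51A1: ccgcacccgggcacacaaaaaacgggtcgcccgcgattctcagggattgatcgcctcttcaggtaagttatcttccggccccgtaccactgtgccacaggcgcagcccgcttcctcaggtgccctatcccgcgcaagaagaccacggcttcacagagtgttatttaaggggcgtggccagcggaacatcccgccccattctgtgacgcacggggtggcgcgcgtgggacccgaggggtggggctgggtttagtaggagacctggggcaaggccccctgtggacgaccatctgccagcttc
NSDHL: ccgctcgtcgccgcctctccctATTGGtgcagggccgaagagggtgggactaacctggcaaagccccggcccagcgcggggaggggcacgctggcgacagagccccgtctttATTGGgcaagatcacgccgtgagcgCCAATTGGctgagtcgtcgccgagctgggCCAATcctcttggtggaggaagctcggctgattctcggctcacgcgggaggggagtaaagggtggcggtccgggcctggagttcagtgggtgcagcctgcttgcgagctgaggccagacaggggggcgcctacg
SCD: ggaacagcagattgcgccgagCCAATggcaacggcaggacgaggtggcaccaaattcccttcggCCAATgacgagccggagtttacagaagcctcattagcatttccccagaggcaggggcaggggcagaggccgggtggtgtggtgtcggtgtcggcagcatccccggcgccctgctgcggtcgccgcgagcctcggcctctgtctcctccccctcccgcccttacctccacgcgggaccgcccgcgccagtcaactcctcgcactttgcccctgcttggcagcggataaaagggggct
SREBF2: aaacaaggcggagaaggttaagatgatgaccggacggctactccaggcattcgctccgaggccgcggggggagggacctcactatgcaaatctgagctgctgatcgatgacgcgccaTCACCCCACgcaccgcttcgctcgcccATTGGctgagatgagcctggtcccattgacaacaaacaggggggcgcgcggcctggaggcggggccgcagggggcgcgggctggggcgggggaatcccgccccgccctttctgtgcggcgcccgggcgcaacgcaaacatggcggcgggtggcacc
SREBF1: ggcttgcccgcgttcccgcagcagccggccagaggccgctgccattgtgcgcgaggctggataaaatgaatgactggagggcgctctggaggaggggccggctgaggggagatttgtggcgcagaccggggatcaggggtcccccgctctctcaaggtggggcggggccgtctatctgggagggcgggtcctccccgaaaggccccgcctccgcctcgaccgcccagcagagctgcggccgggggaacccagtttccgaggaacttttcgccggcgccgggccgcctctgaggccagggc
Of the 29 genes, 25 had a promoter in the RefSeq table, and 18 of these 25 (72%) held a CCAAT box in at least 1 window, against 39.7% of all 27305 genes with a promoter. The CCAAT letters occurred in 34.6% of all 35116 windows. The sterol regulatory element as spelled here was found in 1 of the 25 genes, SREBF2, where it starts 133 bases before the start site, against 1.39% of all genes. The searched letters allow no mismatch outside the N. NSDHL had 5 CCAAT boxes in its window, HMGCS1 and SCD had 2 each, LSS and SREBF2 had 1 each, and the windows of LBR, CYP51A1 and SREBF1 had neither motif. HMGCS1 has a second window in the table, with no CCAAT box.

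Library totals ran from 24542434 to 36583436 counts in the inputs, from 8610070 to 21066215 in the IP and from 3013989 to 9466855 in the IgG libraries. TARDBP, the target of the siRNA, was 1.49-fold lower in the siTDP43 input, with 150, 158 and 152 CPM in WT and 99.1, 102 and 106 CPM in siTDP43 (adjusted p = 6.55e-13). CPM here are counts-per-million values after TMM scaling of all 17 libraries. Of 9 genes known from 293T cells, all 9 were above 3 counts in both inputs, but their summed level was lower in siTDP43 (638 to 693 CPM) than in WT (1259 to 1294 CPM). Of 12 markers of blood, liver, fibroblast, endothelial, astrocyte and fat cells, 5 were at 0 in both inputs and the sum of all 12 was 3.18 to 3.70 CPM in WT and 1.93 to 2.28 CPM in siTDP43. The labels do not say whether replicates came from separate cultures, so p-values measure only the spread between these libraries.

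The input libraries show the abundance of each mRNA before pull-down, and there the 29 genes took a larger share of the RNA after TDP43 knockdown. As CPM without TMM scaling they summed to 2337, 2273 and 2308 in WT input and to 4404, 4373 and 4345 in siTDP43 input. The groups did not overlap, and the mean was 1.90-fold higher in siTDP43, at 4374 ± 29.1 against 2306 ± 32.0 CPM (SD, n = 3), given here as a description with no test. In the pull-downs the same sum was 1821 to 1935 in WT IP, 1757 and 1927 in WT IgG, 2258 to 2340 in siTDP43 IP and 1764 to 1934 in siTDP43 IgG. The siTDP43 input libraries thus lay above all 14 others. In bulk RNA a larger share can come from more RNA per cell or from more cells with that RNA, which cannot be told apart here.

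Of the 29 genes, 19 were higher and 5 lower in siTDP43 input at an adjusted p under 0.05, and 5 did not pass. Among all 14036 genes tested, 38.6% were higher and 40.6% lower, so most of the transcriptome passed this test in one direction or the other. The median log2 change was 0.54 over the 29 genes and -0.05 over all genes. Among the 24 genes called, the libraries of WT and siTDP43 input overlapped for STARD4 only. The like share over all genes called was not counted. With 18 to 19 genes higher and 5 to 6 lower, the counts differed little when any 1 input library was left out.

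**Figure D1:**
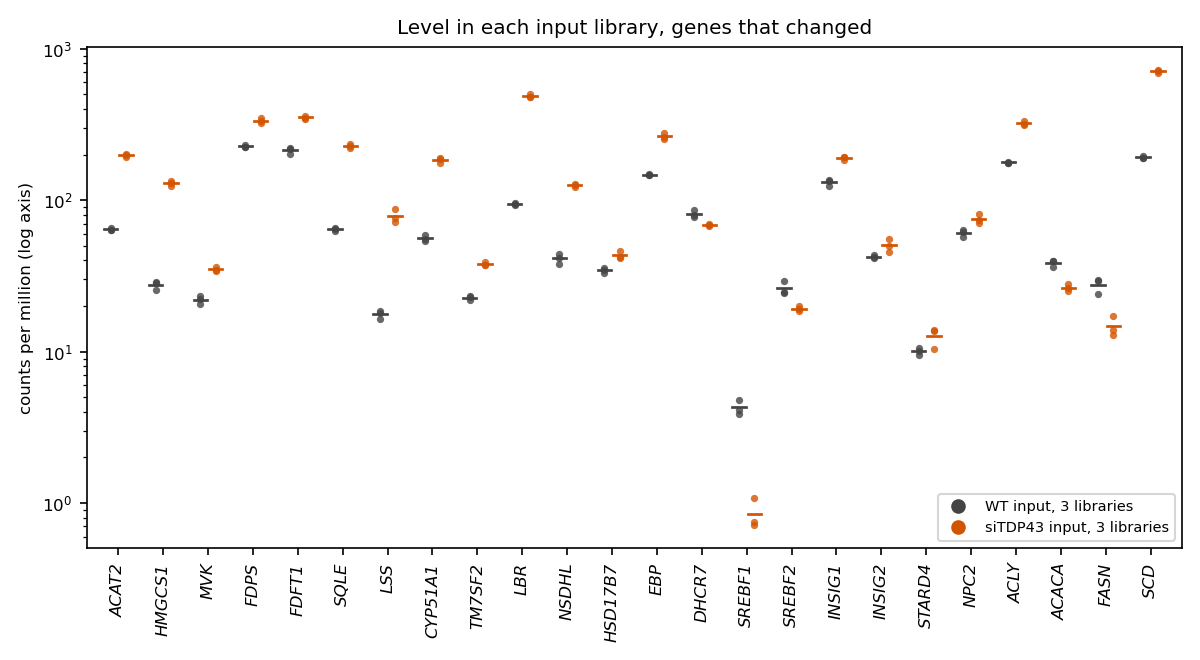
CPM (log axis) in each of the 6 input libraries for the 24 genes called higher or lower after TDP43 knockdown, with points for libraries and short lines for group means. SCD lay between 190 and 196 CPM in WT and between 696 and 727 CPM in siTDP43, and SREBF1 was the lowest of these genes in both groups.

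The mevalonate pathway turns acetyl-CoA into farnesyl diphosphate. Of its 7 genes, 4 rose and none fell. HMGCS1, the synthase that makes HMG-CoA (hg19 chromosome 5, 43289493 to 43313595), had 28.4, 25.5 and 28.9 CPM in WT input and 134, 124 and 129 CPM in siTDP43 input. Every siTDP43 library was thus above every WT library by a wide margin, and the change was 2.24 on the log2 scale (SE 0.0568, 4.71-fold, adjusted p = 2.86e-25).

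ACAT2, the cytosolic thiolase that joins acetyl-CoA units at the entry of the pathway, had 63.5, 63.9 and 65.9 CPM in WT input and 201, 194 and 198 CPM in siTDP43 input. It rose 3.08-fold (log2 1.62, adjusted p = 2.06e-24). Its exons share 546 bases with genes on the opposite strand, TCP1 among them, and as no source used here says whether counting used strand, reads of the opposite gene cannot be told apart there. FDPS, which makes farnesyl diphosphate, rose 1.49-fold from 225, 231 and 225 CPM to 349, 335 and 322 CPM (adjusted p = 4.89e-14). MVK, the mevalonate kinase, rose 1.60-fold from 23.2, 20.6 and 22.3 CPM to 36.3, 33.9 and 34.7 CPM (adjusted p = 1.47e-09). In both genes the libraries of the genotypes were apart.

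The middle steps moved otherwise. PMVK, MVD and IDI1, which phosphorylate and decarboxylate mevalonate and isomerise the isoprenoid unit, had log2 changes of -0.02, -0.03 and -0.01 and adjusted p of 0.75, 0.696 and 0.856. IDI1 had 151, 140 and 140 CPM in WT input and 141, 137 and 148 CPM in siTDP43 input, so the groups overlapped. With a trend with GC content removed all 3 were called, PMVK at 0.39 (adjusted p = 5.81e-08), MVD at 0.95 (7.26e-15) and IDI1 at -0.34 (8.63e-09). Exons of IDI1 share 173 bases with IDI2-AS1 on the opposite strand.

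Of the 10 genes from squalene to cholesterol 9 were higher and 1, DHCR7, was lower, with a median log2 change of 1.23. LBR, the lamin B receptor, is a protein of the inner nuclear membrane that also reduces a sterol double bond. It had 93.4, 96.1 and 95.1 CPM in WT input and 481, 482 and 500 CPM in siTDP43 input. The change of 5.17-fold (log2 2.37, SE 0.0406, adjusted p = 1.32e-29) was the largest rise among the 29 genes. TM7SF2, the other sterol reductase of this step, rose 1.68-fold, from 21.8, 22.9 and 23.4 CPM to 39.1, 37.1 and 37.3 CPM (adjusted p = 7.25e-11).

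LSS, which closes squalene epoxide into lanosterol (hg19 chromosome 21, 47608360 to 47648738), had 18.0, 18.5 and 16.5 CPM in WT input and 87.1, 75.7 and 71.7 CPM in siTDP43 input. It rose 4.45-fold (log2 2.15, SE 0.0728, adjusted p = 3.59e-22). SQLE, the squalene epoxidase just before it, had 64.6, 62.4 and 65.2 CPM in WT and 228, 223 and 235 CPM in siTDP43, a rise of 3.59-fold (log2 1.84, adjusted p = 6.82e-26). The siTDP43 libraries of both enzymes were all above the WT libraries.

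CYP51A1, the lanosterol demethylase, rose 3.31-fold from 53.5, 55.0 and 59.3 CPM to 176, 190 and 186 CPM (adjusted p = 7.65e-24). NSDHL, a dehydrogenase that helps remove the methyl groups of lanosterol, rose 3.07-fold from 44.2, 37.9 and 41.8 CPM to 128, 123 and 126 CPM (adjusted p = 3.96e-22). For these enzymes too no library of one genotype reached the level of the other. EBP, the sterol isomerase, rose 1.80-fold, FDFT1, the squalene synthase, 1.66-fold and HSD17B7, the sterol ketone reductase, 1.26-fold.

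DHCR7, the reductase that makes cholesterol in the last step, had 85.6, 80.3 and 77.4 CPM in WT input and 69.5, 68.1 and 67.7 CPM in siTDP43 input. It fell 1.18-fold (log2 -0.24, adjusted p = 0.000153), the lower level holding in all 3 siTDP43 libraries. After a trend with GC content was removed its log2 change was 0.061 and no longer passed (adjusted p = 0.225).

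**Figure D2:**
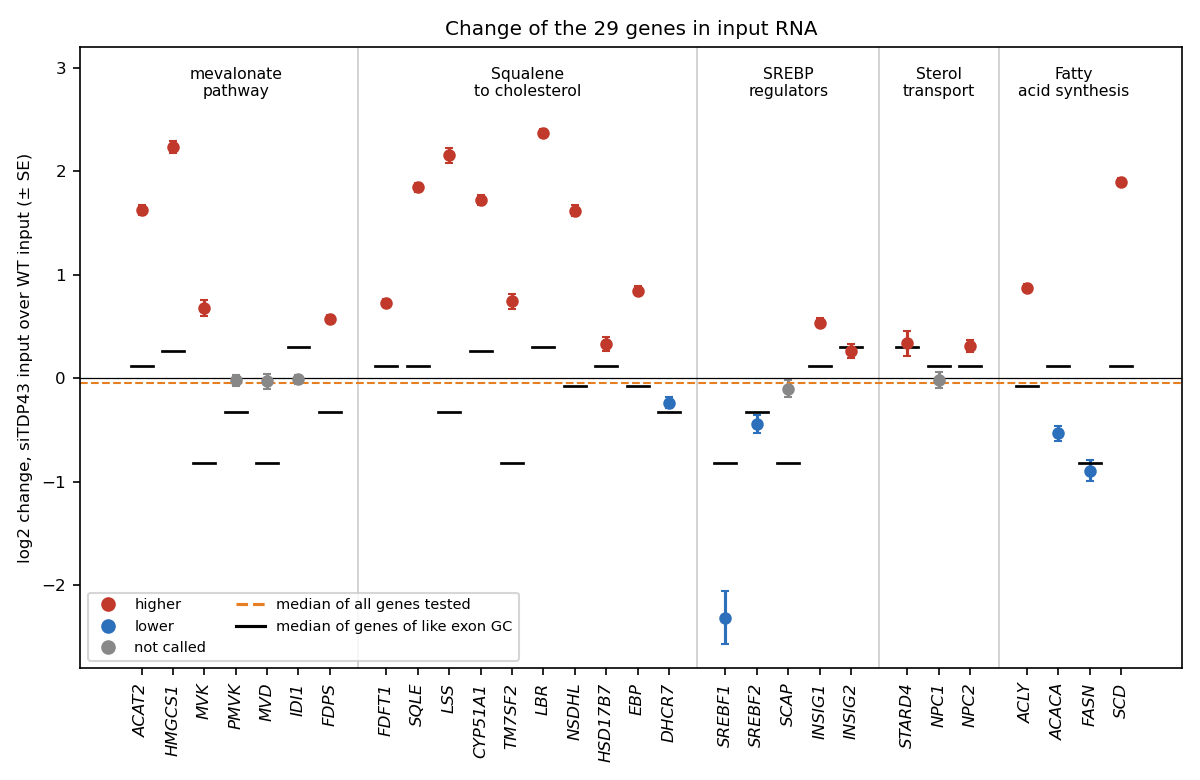
Log2 change of each of the 29 genes in siTDP43 input over WT input (points, bars are SE, n = 3 in each group), ordered by role and coloured by call, beside the median of all genes tested (dashed line, -0.05) and the median of all genes in the same class of exon GC (short black lines). LBR, HMGCS1 and LSS lay above 2 on this scale and SREBF1 below -2.

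The SREBP regulators did not move together, with 2 higher, 2 lower and 1 not called. SREBF1, the gene of SREBP1 (hg19 chromosome 17, 17714663 to 17740325), had 3.88, 4.14 and 4.80 CPM in WT input and 1.08, 0.750 and 0.712 CPM in siTDP43 input. It fell 4.96-fold (log2 -2.31, SE 0.254, adjusted p = 1.24e-09), the largest fall among the 29 genes, with raw counts of 117 to 168 in WT and 19 to 34 in siTDP43 libraries. By limma on log2(FPKM + 1), which shrinks changes of low genes, the fall was -0.71. SREBF2, the gene of SREBP2 (hg19 chromosome 22, 42229106 to 42302375), had 24.4, 29.3 and 24.6 CPM in WT and 19.1, 19.9 and 18.5 CPM in siTDP43. Its fall of 1.36-fold (adjusted p = 3.49e-05) did not pass after the GC trend was removed (log2 -0.063, adjusted p = 0.493).

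The INSIG genes, whose proteins hold the SREBPs back, were both higher. INSIG1 had 135, 124 and 136 CPM in WT input and 194, 183 and 194 CPM in siTDP43 input, a rise of 1.45-fold (adjusted p = 2.30e-12). INSIG2 rose 1.20-fold, from 43.2, 41.7 and 42.0 CPM to 50.2, 45.6 and 55.7 CPM (adjusted p = 0.000565), but it did not pass with the GC trend removed (log2 -0.017) or with all 17 libraries in 1 fit (adjusted p = 0.0557). SCAP, the escort of the SREBPs, had overlapping libraries and a log2 change of -0.10 (adjusted p = 0.253). It was called lower with total count scaling (-0.19) and without siTDP43 input replicate 1 (-0.19), and higher with the GC trend removed (0.50).

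Among the 3 transport genes, NPC2, the soluble lysosomal protein that binds cholesterol, rose 1.24-fold from 63.6, 61.7 and 57.4 CPM to 73.4, 70.2 and 81.6 CPM (adjusted p = 1.47e-05). NPC1, the membrane protein that receives sterol from NPC2, had 28.6, 26.6 and 28.3 CPM in WT and 27.3, 28.8 and 25.8 CPM in siTDP43 and did not pass (adjusted p = 0.812). STARD4, a cytosolic sterol carrier, passed at 1.26-fold (adjusted p = 0.0127) although its libraries overlapped, with 10.1, 10.6 and 9.43 CPM in WT and 10.4, 13.8 and 13.8 CPM in siTDP43. That call was lost without WT input replicate 3 (adjusted p = 0.0597) or without siTDP43 input replicate 2 (0.066) or 3 (0.0635), with total count scaling (0.0657), by limma (0.0957), with the GC trend removed (0.807) and with all 17 libraries in 1 fit (0.186). Exons of STARD4 share 75 bases with LOC100505678 on the opposite strand, and those of NPC2 hold MIR4709 on the same strand.

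The 4 genes of fatty acid synthesis parted into 2 higher and 2 lower. SCD, the desaturase that makes oleate, had 196, 191 and 190 CPM in WT input and 696, 711 and 727 CPM in siTDP43 input. It rose 3.72-fold (log2 1.89, SE 0.0384, adjusted p = 9.68e-28) and was the most counted of the 29 genes in siTDP43 input. ACLY, which cleaves citrate to supply cytosolic acetyl-CoA to both pathways, rose 1.83-fold from 177, 180 and 177 CPM to 335, 321 and 315 CPM (adjusted p = 9.57e-19).

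The enzymes that build the acyl chain itself were lower. ACACA, the acetyl-CoA carboxylase that makes malonyl-CoA, had 39.4, 36.4 and 39.8 CPM in WT and 26.5, 25.0 and 28.0 CPM in siTDP43, a fall of 1.45-fold (log2 -0.53, adjusted p = 6.66e-08). FASN, the fatty acid synthase, had 29.1, 23.9 and 29.7 CPM in WT and 17.3, 12.9 and 13.9 CPM in siTDP43, a fall of 1.86-fold (log2 -0.89, adjusted p = 2.49e-09). No libraries overlapped in either gene. FASN has a high exon GC of 65.3%, and its log2 change was 0.069 (adjusted p = 0.498) once the GC trend was removed.

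Scaled by exon length, the order of the 29 levels in WT input ran from SREBF1 at 0.854 ± 0.0949 FPKM (SD, n = 3) to FDPS at 138 ± 2.32 FPKM, with EBP at 128 ± 1.75 and FDFT1 at 101 ± 4.54 FPKM next to the top. FPKM here is CPM per kilobase of exon. FASN (3.26 ± 0.381 FPKM) and ACACA (3.39 ± 0.161 FPKM) followed SREBF1 and did not differ beyond their spread. In siTDP43 input EBP stood first at 228 ± 9.55 FPKM, then FDPS at 204 ± 8.22 and FDFT1 at 167 ± 4.04 FPKM. SCD at 130 ± 2.80 and ACAT2 at 127 ± 2.19 FPKM came next and lay within their spread of each other, and SREBF1 remained lowest at 0.169 ± 0.0402 FPKM.

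The change in input moved with the GC content of exons across the whole table. The median log2 change fell from 0.30 in 1864 genes with at most 40% GC to -0.82 in 2254 genes above 60% GC, and whether RNA or library quality has a part in this was not tested. Set against the median of genes of like GC, LSS was higher by 2.48, LBR by 2.07, HMGCS1 by 1.97, SCD by 1.78, SQLE by 1.73 and NSDHL by 1.69 on the log2 scale. GC-rich genes such as MVK, TM7SF2 and MVD stood further from that median than from 0, higher by 1.50, 1.56 and 0.79, whereas FASN differed from it by -0.07 and SREBF2 by -0.11. SREBF1 differed from its class by -1.49. With the trend removed in each library, 20 of the genes were higher and 3 lower. The shares of all genes called after this removal were not counted. MVD (log2 0.95), SCAP (0.50) and PMVK (0.39) joined the genes called higher and IDI1 (-0.34) those called lower.

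**Figure D3:**
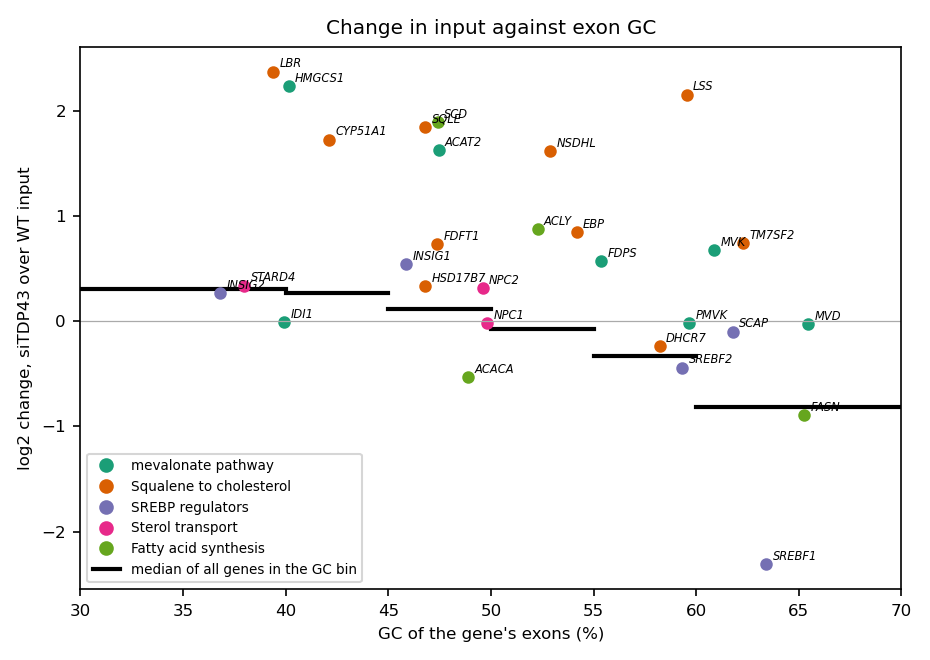
Log2 change in input of each of the 29 genes (points coloured by role) against the GC content of its exons in percent, with the median of all tested genes in each GC class as black lines that fall from 0.30 to -0.82. LSS, MVK, TM7SF2 and MVD lay far above the line of their class, and FASN lay on it.

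A further 30 genes of the same pathways gave 18 higher and 7 lower in siTDP43 input. They were listed by function with earlier results of these data known, so they are a description and not independent support. Among all genes tested, 38.6% were higher and 40.6% lower. The median log2 change was 0.48 over the 30 genes and -0.05 over all genes. Among 15 sterol genes 9 were higher and 4 lower. MBTPS1, the protease that first cuts the SREBPs, rose by 1.62 on the log2 scale and MSMO1, a sterol methyl oxidase, by 1.20. TMEM97, a membrane protein that responds to sterol, fell by 0.69, OSBP, an oxysterol-binding protein, by 0.65 and SC5DL, a sterol desaturase, by 0.35. Among 15 fatty acid genes 9 were higher and 3 lower. The elongase ELOVL6 rose by 1.51, the desaturase FADS1 by 1.40 and the acyl-CoA synthetase ACSL4 by 1.14, while FADS2, the neighbouring desaturase gene, fell by 1.95, the citrate carrier SLC25A1 by 1.93 and MCAT, which loads malonyl groups in mitochondria, by 0.65.

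The IP was then set against both controls in each genotype, and a gene was called where the fold change passed 2 and the adjusted p was under 0.05. Enrichment is relative within a library, and the ac4C-bearing globin RNA that the methods add before purification was not used for scaling here. In WT the IP held few of the 29 genes at raised levels over input: 2 were higher, beside 30.2% of all 14751 genes tested, and 8 were lower, beside 27.3% of all genes. Over IgG, 10 were higher (35.2% of all genes) and 5 lower (17.8%). In the IgG libraries themselves 4 genes were higher than input (24.4% of all genes) and 11 lower (36.6%). The control pull-down thus also departed from input, among all genes as well as among these.

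SREBF1 was the only gene of the 29 above both controls in WT, the definition of ac4C(+) used here, which 15.6% of all genes met. It had 18.4, 14.9 and 18.5 CPM in WT IP against 3.88, 4.14 and 4.80 CPM in input and 4.80 and 3.64 CPM in IgG. All IP libraries were above all control libraries. The log2 ratio to input was 2.02 (SE 0.16, adjusted p = 1.67e-11) and that to IgG was 1.99 (adjusted p = 1.09e-08). With the GC trend removed its log2 enrichment over input was 0.74, below a fold change of 2, and no gene of the 29 was ac4C(+) in WT. Its exons overlap RAI1 on the opposite strand over 103 bases.

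FASN was the other gene above input in WT IP, with 103, 99.1 and 105 CPM against 29.1, 23.9 and 29.7 CPM (log2 1.91, adjusted p = 5.57e-17). The IgG libraries were also above input for FASN, at 68.0 and 70.1 CPM (log2 1.38, adjusted p = 8.76e-13), and the enrichment over IgG did not reach a fold change of 2. With the GC trend removed its log2 change over input was 0.23 in the IP and 0.48 in IgG.

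The genes depleted from WT IP were ACAT2, STARD4, FDPS, INSIG2, IDI1, HSD17B7, FDFT1 and INSIG1, with log2 changes over input from -4.73 in ACAT2 to -1.04 in INSIG1. INSIG1 fell short of the fold threshold without WT IP replicate 1 (-0.98), with a mean of at least 50 counts (-0.98), with total count scaling (-0.94), by limma (-0.91) and with the GC trend removed (-0.76). ACAT2 fell from 63.5, 63.9 and 65.9 CPM in input to 2.03, 2.33 and 2.88 CPM in IP, and was as low in IgG, with 0.961 and 3.44 CPM. FDPS had 34.3, 30.2 and 32.0 CPM in IP, below 225 to 231 CPM in input (log2 -2.81, adjusted p = 2.51e-20) but above 2.69 and 1.01 CPM in IgG (log2 4.06, adjusted p = 1.69e-15). The 2 IgG libraries held 28 and 10 counts, and the log2 ratio was 4.94 without WT IgG replicate 1 and 3.55 without replicate 2. FDPS thus stood between the controls, and its exons overlap RUSC1-AS1 on the opposite strand over 207 bases.

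Several genes passed over IgG while their IP was at or below input, the IgG libraries being lower still. SCAP had 39.6, 33.5 and 39.3 CPM in WT IP and 34.0, 35.0 and 36.4 CPM in input, but 0.192 and 0.607 CPM in IgG (log2 6.51, adjusted p = 2.08e-16), which are 2 and 6 counts. That ratio was 5.89 without WT IgG replicate 1 and 7.54 without replicate 2. HSD17B7 had 0 and 2 counts in WT IgG and STARD4 had none. The ratio of IP to IgG was 121 for HSD17B7 (95% counting interval 33.3 to 999). STARD4 was at least 3.95-fold higher in IP against a floor of 3 counts in each IgG library. Such intervals and floors cover counting error only and take each count as independent. Most small counts were even, as when both mates of a read pair are counted, and the intervals would then be too narrow. INSIG2 (log2 4.62), ACACA (2.17), DHCR7 (2.04), NPC1 (1.12) and TM7SF2 (1.01) were also higher over IgG, and all 5 were lower in IgG than in input. TM7SF2 fell below the fold threshold without WT IgG replicate 1 (log2 0.61), WT IP replicate 1 (0.96) or WT IP replicate 3 (0.99) and with the GC trend removed (0.40). NPC1 did so by limma (0.87) and with the GC trend removed (0.94), and STARD4 by limma (0.67).

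NSDHL, MVD, INSIG1, IDI1 and LSS were lower in WT IP than in IgG, by -1.45, -1.33, -1.31, -1.08 and -1.05 on the log2 scale. For MVD the IgG libraries held 222 and 192 CPM against 48.0, 48.8 and 47.0 CPM in input (log2 2.16, adjusted p = 1.04e-18), and for LSS 81.9 and 47.8 CPM against 18.0, 18.5 and 16.5 CPM (log2 1.92). PMVK was higher in IgG than in input as well (log2 1.24). Without WT IgG replicate 1 the log2 change of LSS in IP over IgG was -0.61 and that of IDI1 -0.95, and 3 genes were lower. Both also missed the threshold with total count scaling (-0.92 and -0.95) and by limma (-0.79 and -0.92), LSS without WT IP replicate 2 (-0.99) and IDI1 with the GC trend removed (-0.82).

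**Figure D4:**
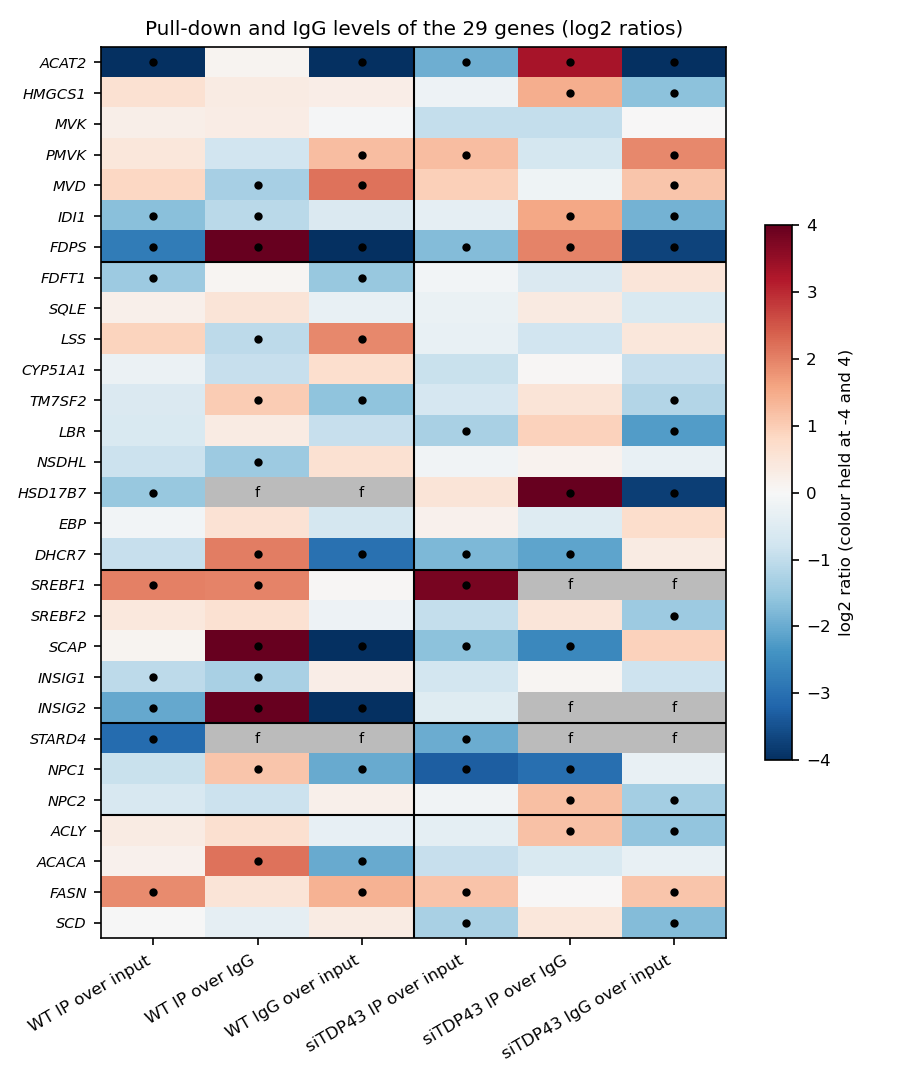
Log2 ratios of IP over input, IP over IgG and IgG over input for the 29 genes in WT (left) and siTDP43 (right), with colour held at -4 and 4, black dots for ratios that passed, and grey cells marked f where a group held at most 3 counts in every library. SREBF1 was called higher in IP over input in both genotypes, and no other gene was called higher over input and over IgG in the same genotype.

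In siTDP43 cells 3 genes were higher in IP than in input (26.8% of all 12746 genes tested) and 8 lower (25.4%). Over IgG, 10 were higher (34% of all genes) and 3 lower (15%), and IgG itself was higher than input for 3 (24.7%) and lower for 14 (41%). SREBF1 was again the only ac4C(+) gene of the 29, beside 10.3% of all genes. It had 11.3, 11.7 and 8.96 CPM in siTDP43 IP, 1.08, 0.750 and 0.712 CPM in input and no count in any IgG library. Its log2 enrichment over input was 3.79 (SE 0.35, adjusted p = 3.87e-09), and it was at least 9.43-fold higher in IP than in IgG. The input counts behind this ratio were 19 to 34 per library, and with a mean of at least 50 counts required the gene was not tested.

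PMVK and FASN were the others above input, with log2 ratios of 1.24 and 1.13. PMVK had 131, 120 and 105 CPM in siTDP43 IP against 56.9, 54.3 and 57.2 CPM in input, yet 196, 185 and 167 CPM in IgG. FASN had 32.3, 31.0 and 23.3 CPM in IP and 22.8, 29.9 and 28.5 CPM in IgG, which overlap, and its log2 change over input was -0.53 with the GC trend removed. Neither gene passed over IgG. Both missed the fold threshold over input with total count scaling (0.90 for PMVK and 0.79 for FASN) and by limma (0.88 and 0.55), PMVK with the GC trend removed (0.80) and FASN with all 17 libraries in 1 fit (0.98).

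Lower than input were NPC1 (log2 -3.29), ACAT2 (-1.96 on the log2 scale), STARD4 (-1.98), DHCR7 (-1.78), FDPS (-1.72), SCAP (-1.63), LBR (-1.29) and SCD (-1.29). NPC1 had 2.23, 3.24 and 1.99 CPM (30, 32 and 16 counts) in siTDP43 IP against 27.3, 28.8 and 25.8 CPM in input and 17.6, 21.8 and 17.8 CPM in IgG, so its IP libraries were below both controls. Its exons overlap C18orf8 on the opposite strand over 156 bases. SCD had 259, 269 and 254 CPM in IP against 696 to 727 CPM in input, and 181, 190 and 174 CPM in IgG. With the GC trend removed LBR fell short of the fold threshold (-0.90).

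Over IgG in siTDP43, HSD17B7 (log2 4.25), ACAT2 (3.30), FDPS (1.97), IDI1 (1.54), HMGCS1 (1.44), NPC2 (1.22) and ACLY (1.18) were higher. With the GC trend removed HMGCS1 (0.75), IDI1 (0.83), NPC2 (0.89) and ACLY (0.95) missed the fold threshold, and without siTDP43 IgG replicate 3 the value of HSD17B7 was 5.49. INSIG2 had no count in the 3 IgG libraries and was at least 28.5-fold higher in IP, and STARD4 had 2 counts in all, both in replicate 1, with a ratio of 11.2 (95% counting interval 3.02 to 94.2). By limma STARD4 missed the threshold (0.98), and its interval again takes each count as independent. NPC1 (-3.01), SCAP (-2.57) and DHCR7 (-2.10) were lower on the same scale. NPC2 fell below the fold threshold without siTDP43 IgG replicate 3 (log2 0.997).

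Whether enrichment differed between genotypes was tested as an interaction over all 17 libraries. The ratio of IP to input was higher in siTDP43 than in WT for 11 genes (31.5% of all 15165 genes tested) and lower for 14 (36.3%). A higher ratio can also be a weaker depletion from the IP. By role, 4 of 7 mevalonate genes were higher and 2 lower, 3 of 10 genes from squalene to cholesterol were higher and 5 lower, and all 4 fatty acid genes were lower. The median was -0.22 over the 29 genes and -0.19 over all genes on the log2 scale.

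ACAT2 had the largest rise of the ratio of IP to input, 2.62 on the log2 scale (SE 0.20, adjusted p = 4.61e-14). It had 2.03, 2.33 and 2.88 CPM in WT IP and 49.7, 45.8 and 40.3 CPM in siTDP43 IP, beside a rise of its input. Its IP stayed below input in both genotypes (log2 -4.73 in WT and -1.96 in siTDP43), so its depletion was weaker after knockdown. HSD17B7 rose by 1.88, SREBF1 by 1.63, INSIG2 by 1.41, FDFT1 by 1.21 and IDI1 by 1.16. In siTDP43 the mean IP level of FDFT1, INSIG2 and IDI1 was still below input (295 against 352, 32.2 against 50.5 and 99.1 against 142 CPM). That of HSD17B7 and SREBF1 was above input (55.2 against 43.4 and 10.6 against 0.846 CPM). For SREBF1 the IP fell less than the input did, and on log2(FPKM + 1) by limma the difference was -0.0763 with an adjusted p of 0.605. IDI1, level in the inputs, had 46.7, 45.6 and 42.7 CPM in WT IP and 103, 95.8 and 98.4 CPM in siTDP43 IP.

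NPC1 had the largest fall, of -2.56 on the log2 scale (SE 0.24, adjusted p = 1.04e-11), from 14.5, 17.5 and 13.0 CPM in WT IP to 2.23, 3.24 and 1.99 CPM in siTDP43 IP while its inputs overlapped. SCAP fell by 1.88, SREBF2 by 1.53, SCD by 1.42, MVK by 1.34, LSS by 1.33 and ACACA by 1.24. SREBF2 had 38.6, 33.7 and 31.7 CPM in WT IP and 9.08, 9.33 and 7.97 CPM in siTDP43 IP, a wider gap than in its inputs. For SCD the IP libraries differed less between genotypes (187 to 192 against 254 to 269 CPM) than the inputs did.

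Measured over IgG the change was higher for 13 genes (34.9% of all genes) and lower for 8 (25.9%). SCAP showed the largest, -9.02 on the log2 scale (adjusted p = 2.93e-22), with 0.192 and 0.607 CPM in WT IgG and 52.2, 47.3 and 59.8 CPM in siTDP43 IgG, so its IgG level moved more than its IP level. The value was -8.40 without WT IgG replicate 1 and -10.04 without replicate 2. DHCR7 (-4.08), NPC1 (-4.07), ACACA (-2.74), FDPS (-2.03), MVK (-1.19) and EBP (-1.06) were also lower. ACAT2 (3.25), IDI1 (2.67), NPC2 (2.12), NSDHL (1.65), INSIG1 (1.45), MVD (1.22), HMGCS1 (1.17) and CYP51A1 (1.01) were higher, and the last pair lost the call with the GC trend removed (-0.016 and 0.000452). Without WT IgG replicate 1 or 2 the change was 3.91 or 2.07 for ACAT2, and without replicate 1 it was -2.91 for FDPS. SREBF1 and INSIG2 were called higher against IgG groups at 0, for which no size is given. SREBF1 lost that call by limma (adjusted p = 0.31) and INSIG2 with the GC trend removed (adjusted p = 0.0544). DHCR7 had 9.80 and 10.1 CPM in WT IgG and 72.0, 73.6 and 71.9 CPM in siTDP43 IgG, whereas its IP fell from 43.9, 42.9 and 39.4 to 15.5, 21.2 and 17.1 CPM.

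**Figure D5:**
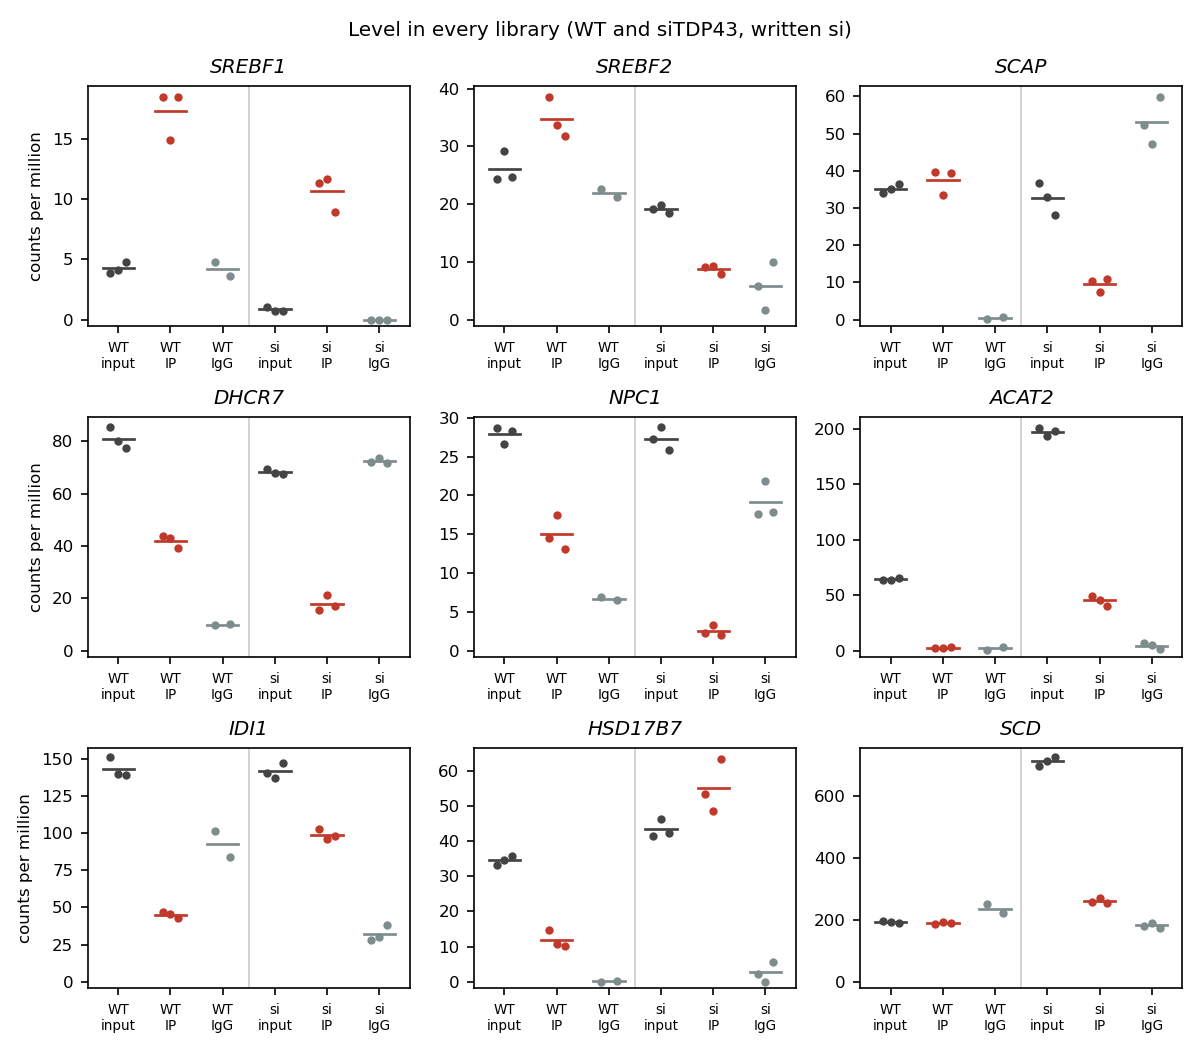
CPM of 9 genes in every library of the 6 groups (points are libraries, lines are group means, dark for input, red for IP, grey for IgG; siTDP43 is written si), each panel with its own linear axis from 0. SREBF1 was highest in IP in both genotypes, and the IgG levels of SCAP and DHCR7 were near the bottom in WT and at or above input in siTDP43.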

How the data were processed

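The authors deposited a table of counts of reads by gene, not normalized. Per the study's methods, the authors trimmed reads with Trim Galore 0.6.7, aligned them to hg19 with STAR 2.7.10a and counted unique alignments with featureCounts 2.0.2. The labels' build field names mm10, but the exon positions of the table lie on the hg19 genes. Annotation release, strand use and treatment of read pairs are not given in the sources used here, and 81.3 to 95.9% of counts between 1 and 20 were even, as when both mates are counted. No molecular identifiers were used.

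Groups and replicate numbers came from sample titles. The tests used edgeR 4.0.16 under R 4.3.3 (two-sided quasi-likelihood F test, TMM, filterByExpr with a minimum count of 10) over all genes, with Benjamini-Hochberg adjustment, in 6 inputs, 8 WT, 9 siTDP43 or all 17 libraries. Printed CPM use the 17-library TMM factors, and fold changes those of each fit. An input change or a change of enrichment needed an adjusted p under 0.05, and enrichment also a fold change above 2. No library repeated another (chi-square of replicate pairs 3.26 to 9.43 per degree of freedom).

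Alternatives were DESeq2 1.42.0 and its size factors, total count scaling, no filter, a mean of at least 50 counts, limma 3.58.1 on log2(FPKM + 1), halved counts, all 17 libraries in 1 fit, the replicate number as a block, other ac4C(+) rules, each library left out and, chosen after seeing the data, removal of a GC trend from each library. The scripts were tested on simulated data. The 29 genes, the 30 further pathway genes, the motifs and the tests were chosen with earlier results of these data known. Each of the 29 genes is accounted for. Values of some further pathway genes are not reported here. In pull-down comparisons a gene was named if it passed with an absolute log2 change above 1 and libraries that did not overlap, was ac4C(+), or had at most 3 counts in every library of a group.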

Additional observations from a re-analysis of the deposited data

Results flagged for a closer look

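In 13 cases enrichment of a gene pointed in opposite directions in WT and siTDP43. Each direction passed an adjusted p of 0.05, as did the difference between genotypes in the interaction test. How many of all genes met this rule was not counted. In the interaction test alone, 31.5% of all genes were higher and 36.3% lower over input, and 34.9% and 25.9% over IgG. Each value below is the difference, siTDP43 minus WT, of the log2 enrichment.

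For enrichment over input, the difference was -0.87 for ACLY, which went from 0.32 in WT to -0.41 in siTDP43, 1.88 for HSD17B7 (-1.53 to 0.50), -1.33 for LSS (0.88 to -0.31), -0.61 for SQLE (0.19 to -0.26) and -1.53 for SREBF2 (0.42 to -0.96). In 4 of these 5 genes enrichment was lower after knockdown, and only HSD17B7 went up. LSS, SQLE, ACLY and HSD17B7 were higher and SREBF2 lower in the siTDP43 input, which is part of each of these ratios.

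For enrichment over IgG, the difference was -2.74 for ACACA (2.17 to -0.62), -4.08 for DHCR7 (2.04 to -2.10), -1.06 for EBP (0.59 to -0.52), -4.07 for NPC1 (1.12 to -3.01) and -9.02 for SCAP (6.51 to -2.57). It was 2.67 for IDI1 (-1.08 to 1.54), 2.12 for NPC2 (-0.85 to 1.22) and 0.86 for SCD (-0.36 to 0.45). The WT IgG libraries of SCAP held 2 and 6 counts, so the size of its difference rests on very few reads. No group had more than 3 libraries, so single libraries were not screened as outliers.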

How the results depend on the processing

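Of 140 gene results, the DESeq2 test, its size factors, the omission of the low-count filter, halved counts and the replicate block changed no call and no direction of a called result. Replicate numbers did not pair the libraries (correlation of residuals -0.026 to 0.064 over 40 pairs), and with the replicate block 19 genes were higher and 5 lower in the inputs, as without it. Over every alternative 17 to 20 genes were higher and 3 to 7 lower in the inputs.

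Total count scaling and limma on log2(FPKM + 1) each left 3 genes lower in WT IP over IgG (5 in the reported test), 1 higher in siTDP43 IP over input (3) and 1 higher in siTDP43 IgG over input (3). Total count scaling also gave 14 lower in siTDP43 IP over input (8), and limma 7 genes with a higher change over input (11) and -0.0763 for SREBF1 in that change. With all 17 libraries in 1 fit, 1 gene was higher in siTDP43 IgG over input. Leaving out 1 library at a time gave 3 to 6 genes lower in WT IP over IgG, with 3 when WT IgG replicate 1 was left out.

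With the GC trend removed, 3 genes were lower in the inputs (5), 1 was higher in IP over input in WT (2) and 1 in siTDP43 (3), 6 were higher in siTDP43 IP over IgG (10), and 0 were ac4C(+) in WT. Directions then turned in the inputs for PMVK (0.39), MVD (0.95), DHCR7 (0.061), SCAP (0.50), INSIG2 (-0.017) and FASN (0.069), in siTDP43 IP over input for FASN (-0.53), in siTDP43 IgG over input for MVD (-0.80) and FASN (-0.76) and in the change over IgG for HMGCS1 (-0.016). The cause was not tested. Requiring a mean of at least 50 counts left SREBF1 untested and so 0 ac4C(+) genes in siTDP43, a fold over IgG above 5 left 0 in WT, and IP over IgG alone gave 10 in each genotype. Depth limits the IgG comparisons in which every IgG library held single-digit counts or none, those of SCAP, HSD17B7, STARD4 and INSIG2 in WT and of STARD4, INSIG2 and SREBF1 in siTDP43.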
